A study of Mus musculus with 6 samples.

Results

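Tff3, Shc2, Rims2 and Igdcc4 are 4 mouse genes that had few reads in normal liver tissue and many reads in small liver lesions of the same series. They are the 4 of 25230 genes in the authors' deposited table that were picked by name. Each also had to have at most 20 counts summed over the normal libraries and at least 300 counts summed over the lesion libraries, so their lesion-to-normal difference chose them and is described here without a test. The 2 thresholds alone were met by 10 of 25230 genes, or 0.0396%. In the lesions the 4 genes ran from 1.98 FPKM (fragments per length of gene and depth of library, as the authors scaled them) for Rims2 to 159.9 FPKM for Tff3, and no normal library had more than 7 counts of any of them.

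The tested regions were 3 small lesions, labelled as small tumours and described by the submitters as stacked with glycogen, and they are set against 3 regions of normal adjacent liver. All 6 regions came from male C57BL/6 mice at 7 months. All had received the liver carcinogen diethylnitrosamine (DEN) by intraperitoneal injection at 25 mg/kg when 14 days old, so the normal regions were exposed too. Regions were dissected from formalin-fixed, paraffin-embedded serial sections, and the labels do not tie a region to a mouse. A p-value below therefore measures the spread between these dissected regions, and it is too small if regions shared a mouse.

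The 4 genes encode unrelated proteins. Tff3 encodes trefoil factor 3, a small secreted peptide that goblet cells of the gut release with mucins and that helps an epithelium to close after injury. Shc2 encodes an SHC adaptor, which binds phosphorylated tyrosines of activated receptor kinases and passes the signal to Grb2 and Ras, and which is best known from neurons. Rims2 encodes a RIM scaffold that binds the vesicle GTPase Rab3 and Munc13 proteins and readies secretory vesicles for release at synapses and in insulin-secreting cells. Igdcc4, also called Nope, encodes a membrane receptor with immunoglobulin and fibronectin domains from the family of DCC and neogenin, and is known in mouse as a surface marker of fetal liver cells.

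In RefSeq's annotation of GRCm38.p6, the assembly of the mm10 build, Tff3 (Entrez 21786) lies at chr17:31125306-31129611 on the minus strand and Shc2 (216148) at chr10:79617934-79637918 on the minus strand. Rims2 (116838) lies at chr15:39198286-39684372 on the plus strand and Igdcc4 (56741) at chr9:65101023-65137947 on the plus strand. The genes span 4.306 kb, 19.98 kb, 486.1 kb and 36.92 kb in that order, and the authors' transcript lengths, recovered from the ratio of count to FPKM, are 458, 3957, 7940 and 6230 bases. In GENCODE's annotation, the non-coding gene Gm47163 overlaps Shc2 on the opposite strand and the microRNA gene Gm25381 lies inside Rims2 on the opposite strand. Whether counting used the strand is not given in the sources used here, so reads of Shc2 and Gm47163 cannot be told apart.

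The 250 bases before the annotated start of Igdcc4 and of Shc2, from RefSeq on GRCm38.p6, are shown because both stretches are rich in G, C and CpG and belong to genes that were close to 0 in normal liver. Tff3 and Rims2 had no entry. Sequences run 5′ to 3′ on the strand of the gene, at chr9:65101236-65101485 (plus) for Igdcc4 and chr10:79637919-79638168 (minus) for Shc2. The Igdcc4 window ends at a start that lies inside the gene span given above. Capitals mark matches to the GC box GGGCGG, the core of the cyclic-AMP element TGACG and the TEAD motif GGAATG, which read as their reverse complements where the match is on the opposite strand.
Igdcc4: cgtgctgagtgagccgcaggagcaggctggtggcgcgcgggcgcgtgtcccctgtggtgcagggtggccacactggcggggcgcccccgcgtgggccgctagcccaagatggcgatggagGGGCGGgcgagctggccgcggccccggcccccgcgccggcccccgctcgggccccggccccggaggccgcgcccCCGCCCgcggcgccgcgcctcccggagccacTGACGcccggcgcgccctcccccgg
Shc2: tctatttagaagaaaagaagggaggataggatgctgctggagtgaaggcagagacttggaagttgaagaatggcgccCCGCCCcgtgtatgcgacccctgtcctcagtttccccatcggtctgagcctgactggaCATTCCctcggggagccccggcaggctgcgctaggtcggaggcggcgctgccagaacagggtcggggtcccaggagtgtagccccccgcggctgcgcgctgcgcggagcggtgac
The Igdcc4 window was 84.0% G or C with 39 CpG, and 98.4% of 32851 mouse promoters of this length had fewer. The Shc2 window was 64.0% G or C with 19 CpG, and 80.3% of promoters had fewer, against a median of 6 CpG and 52.4% G or C over all promoters. Igdcc4 held 2 GC boxes, 1 on each strand, starting 130 and 56 bases before the start, and 1 cyclic-AMP core 25 bases before it. Shc2 held 1 GC box on the opposite strand at 173 bases and 1 TEAD motif on the opposite strand at 115 bases. Over all promoters the GC box was found in 32.7%, the cyclic-AMP core in 17.8% and the TEAD motif in 12.6%, searching both strands. The search covered 13 motifs, and those other than the GC box, cyclic-AMP core and TEAD motif had no match in either window. All matches are of letters, and binding was not measured.

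The libraries held between 7294716 and 7412833 counts in lesions and between 6352898 and 6542997 counts in normal regions. Of 12506 genes with enough counts to test, 2340 (18.7%) were higher and 2296 (18.4%) were lower in lesions at an adjusted p under 0.05 (edgeR quasi-likelihood test). Scaling on library size alone gave 1474 higher and 3615 lower, and it moved the median log2 difference of all tested genes to -0.14, against 0.0031 with the scaling used here. Lesion 3 stood apart from lesions 1 and 2: the chi-square per gene, which is 1 for sampling noise alone, was 12.3 and 12.4 for the pairs with lesion 3 and 1.61 for lesions 1 and 2. It was between 1.39 and 3.63 for the pairs of normal regions. Log2 differences with and without lesion 3 are therefore given for Tff3, Rims2 and Igdcc4, but not for every other gene named below. In dissected tissue, more cells that express a gene and more RNA per cell cannot be told apart.

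Tff3 was the most abundant of the 4 in lesions. It had 377, 422 and 743 counts in lesions 1 to 3, against 7, 3 and 7 counts in normal regions 1 to 3. Per length this was 116.1, 127.5 and 236.0 FPKM in lesions, against 2.29, 0.956 and 2.20 FPKM in normal regions. The groups were far apart, and lesion 3 was the highest library. The mean was 159.9 ± 66.2 FPKM in lesions and 1.82 ± 0.746 FPKM in normal regions (SD, n = 3 each). By FPKM it ranked 241 among all genes in lesions and 9870 in normal regions. The log2 difference fitted by edgeR was 6.43, and it was 6.04 without lesion 3.

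Shc2 was the most even of the 4 across libraries. It had 145, 138 and 153 counts in lesions 1 to 3 and 2 counts in each normal region. Its FPKM was 5.17, 4.83 and 5.62 in lesions, against 0.0757, 0.0737 and 0.0729 in normal regions. All lesions lay together at about the same level and all normal regions lay at 2 reads. The mean was 5.21 ± 0.401 FPKM in lesions and 0.0741 ± 0.00145 FPKM in normal regions (SD, n = 3 each), with a fitted log2 difference of 6.05. The small SD of the normal regions comes from equal counts of 2 and understates the counting error.

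Rims2 was abundant in only some of the lesions. It had 160 and 155 counts in lesions 1 and 2 and 21 counts in lesion 3, against 1, 2 and 2 counts in normal regions 1 to 3. Its FPKM was 2.84, 2.70 and 0.385 in lesions, against 0.0189, 0.0368 and 0.0363 in normal regions. Lesion 3 was thus well below lesions 1 and 2 but still above every normal region. The mean of 1.98 ± 1.38 FPKM in lesions, against 0.0306 ± 0.0102 FPKM in normal regions (SD, n = 3 each), hides that split. The fitted log2 difference was 5.91 over all libraries and 6.40 without lesion 3. Set against the pooled normal libraries, CPM was 92.6-fold higher in lesion 1 (95% counting interval 38.9 to 289), 88.1-fold higher in lesion 2 (37.0 to 275) and 12.5-fold higher in lesion 3 (4.58 to 42.4).

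Igdcc4 was between these patterns. It had 149, 184 and 234 counts in lesions 1 to 3, against 2, 5 and 2 counts in normal regions 1 to 3. Its FPKM was 3.37, 4.09 and 5.46 in lesions, against 0.0481, 0.117 and 0.0463 in normal regions. Lesion 3 was the highest library, as for Tff3, and the groups did not overlap. The mean was 4.31 ± 1.06 FPKM in lesions and 0.0705 ± 0.0404 FPKM in normal regions (SD, n = 3 each). The fitted log2 difference was 5.88 and rested partly on the 5 reads of normal region 2, since it was 6.43 without that library. Without lesion 3 it was 5.67.

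**Figure D1:**
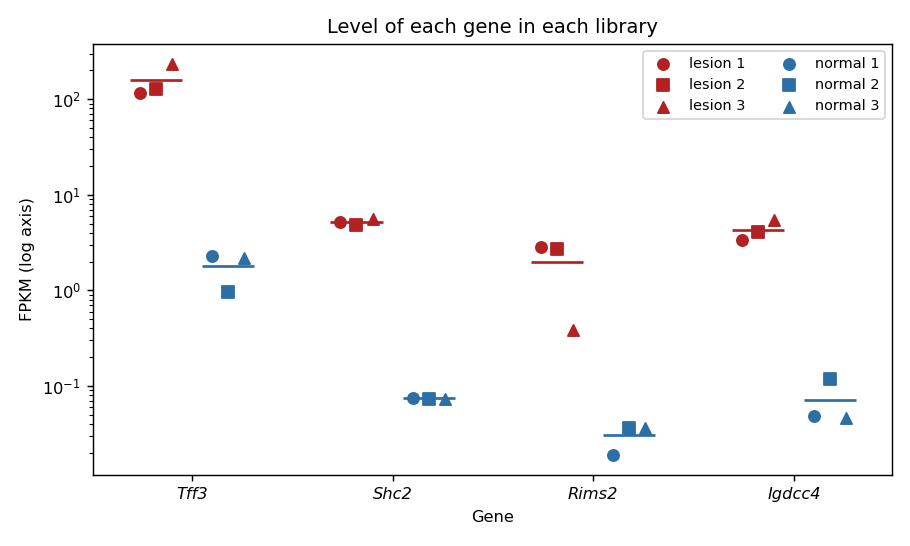
FPKM on a log axis for each of the 4 genes in the 3 lesions (left of each pair) and the 3 normal regions (right), with the marker shape giving the replicate and a line at the mean. Lesions lie above normal regions for each gene, from 116.1 to 236.0 FPKM for Tff3, and Rims2 in lesion 3 lies apart at 0.385 FPKM.

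In lesions, the order of the mean FPKM was Tff3, Shc2, Igdcc4 and Rims2. The lesion ranges of Shc2 (4.83 to 5.62 FPKM) and Igdcc4 (3.37 to 5.46 FPKM) overlapped, although within each lesion Shc2 was the higher of the pair. Rims2, at most 2.84 FPKM, lay below both, and Tff3 lay above them in every lesion. Over the tested genes, 24.2% had every lesion library above every normal library. The 4 genes did too, which their choice on summed counts favoured but did not force. With so few normal reads, the size of each difference is loose. The ratio of pooled CPM, lesion over normal, with its 95% interval for counting error alone, was 87.7 (54.6 to 151.0) for Tff3, 70.3 (32.0 to 192.6) for Shc2, 65.0 (27.6 to 201.5) for Rims2 and 60.9 (31.9 to 134.0) for Igdcc4. These intervals overlap for all 4 genes. The authors' deposited table gives log2 fold changes of 6.46, 6.14, 6.01 and 5.93 for the same order of genes.

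Other genes that met both count thresholds included Fgf21, a liver hormone of the fasting response; Phgdh and Psat1, enzymes of serine synthesis; Slc7a11, the cystine transporter; and Ptges, a prostaglandin E synthase. Of the 4 genes, Rims2 lay nearest the lower limit on lesion counts with 336, and Tff3 lay nearest the upper limit on normal counts with 17. Just outside the normal limit were Dusp5, Cbr3 and Dab1, with 317, 1131 and 408 counts in lesions and 33, 35 and 36 in normal regions. Just outside the lesion limit were Gpc3, 2310034O05Rik and Akr1c18, with 298, 217 and 200 counts in lesions and 10, 1 and 18 in normal regions. Gpc3, a surface proteoglycan of fetal liver and liver cancer, had 6, 14 and 278 counts in lesions 1 to 3 and thus came almost wholly from lesion 3.

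**Figure D2:**
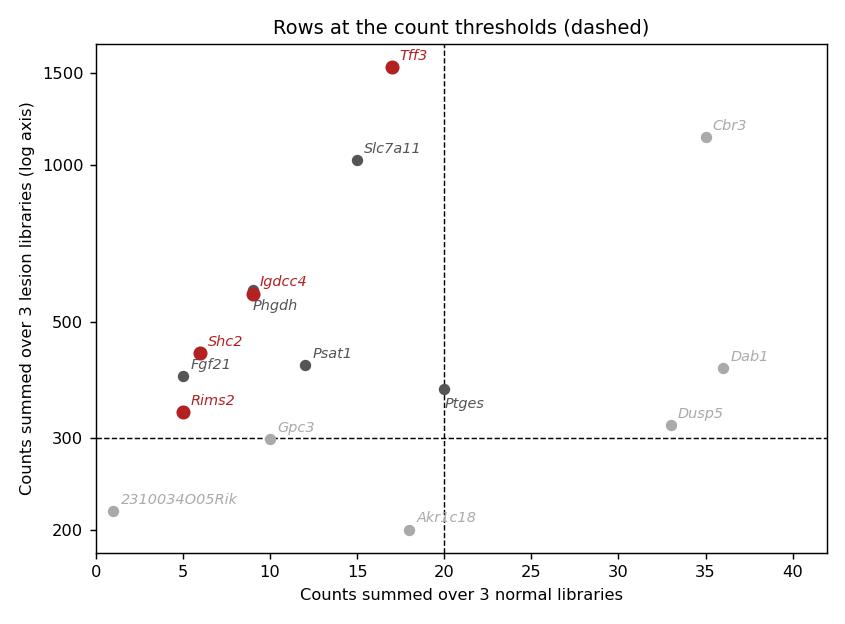
Counts summed over the lesions against counts summed over the normal regions, with dashed lines at 300 and 20 counts. The 4 genes are red, 5 others that met both limits are dark grey and the nearest genes outside are light grey; of the 4, Rims2 with 336 lesion counts and Tff3 with 17 normal counts lie nearest the limits.

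The rule summed the lesions and so left their spread open. Rims2 was the extreme case: its CPM in lesion 3 was 0.138 times the mean of lesions 1 and 2, the lowest of 6762 genes with at least 300 lesion counts, whose median was 1.01. Tff3 went the other way, with a ratio of 1.93, the 50th highest of these genes. Igdcc4 had a ratio of 1.46, the 183rd highest, and Shc2 had 1.12. The coefficient of variation over lesions was 69.9% for Rims2, 41.1% for Tff3, 24.4% for Igdcc4 and 7.4% for Shc2, against a median of 7.58% over these genes. Without lesion 3 the coefficient fell to 3.47% for Rims2 and 6.75% for Tff3. Of the 10 genes that met the thresholds, 5 were higher and 5 were lower in lesion 3 than in the mean of lesions 1 and 2. Slc7a11, at 14.5 times, was above it, and Phgdh at 0.305 times, Psat1 at 0.586 times, Ptges at 0.639 times and Fgf21 at 0.743 times were below it.

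Markers of dividing cells split the lesions the same way as Rims2. Their summed level was 104, 109 and 42.9 CPM in lesions 1 to 3, against 15.6, 11.6 and 12.6 CPM in normal regions 1 to 3. All 6 tested markers of that list were higher in lesions, among them Plk1 (log2 difference 2.63, SE 0.40, adjusted p = 3.54e-05, edgeR) and Ccna2 (2.62, SE 0.45, adjusted p = 0.000253, edgeR). Summed markers of bile duct cells were at 433, 440 and 490 CPM in lesions, against 249, 260 and 260 CPM in normal regions. Of 9 tested, 5 (55.6%) were higher and 1 (11.1%) lower, with a median log2 difference of 0.29. For comparison with both lists, 18.7% of all tested genes were higher and 18.4% lower. The part of either list in the levels of the 4 genes was not tested.

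**Figure D3:**
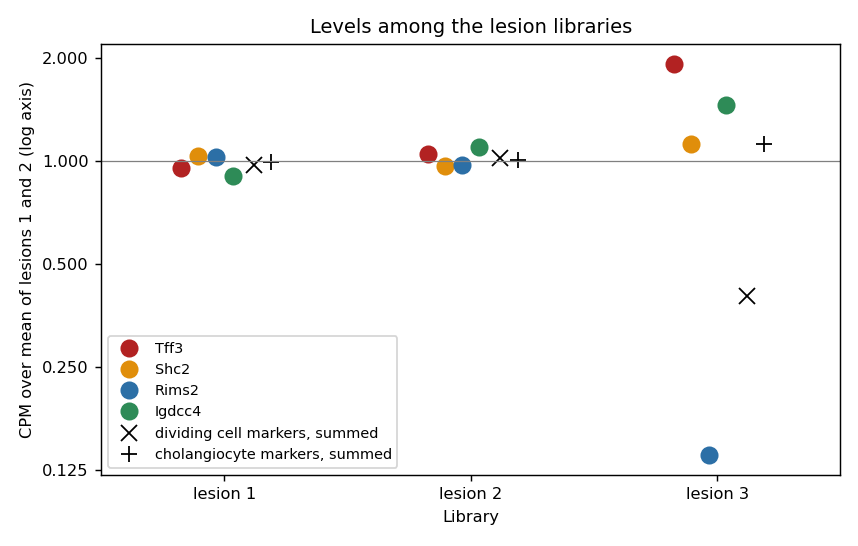
CPM of each of the 4 genes in each lesion divided by the mean of lesions 1 and 2, beside the same for the summed markers of dividing cells and of bile duct cells. Lesions 1 and 2 lie near 1, and in lesion 3 Rims2 lies at 0.138 and Tff3 at 1.93.

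Markers of the cell types in which these genes are best known ranged from no count to the level of the 4 genes themselves. Among goblet and other mucosal secretory markers, Zg16, Agr2, Gkn2 and Lypd8 had no count in any library, and Muc2, the gut mucin, had 0, 1 and 3 counts in lesions and 0, 2 and 4 in normal regions. The summed goblet list was 30.8, 24.1 and 35.6 CPM in lesions and 35.2, 42.9 and 39.8 CPM in normal regions, most of it the mucin gene Muc6, which had between 150 and 229 counts in lesions and between 222 and 282 in normal regions. Of neuron markers, 7 had no count, Snap25, Gap43, Nefl, Nefm and Th among them, and the summed list was between 18.9 and 26.4 CPM in lesions and between 20.8 and 26.0 CPM in normal regions, with neither of 2 tested markers passing. Of neuroendocrine and islet markers, 7 had no count, Chga, Ins1 and Ins2 among them, and the list did not exceed 1.71 CPM in lesions or 2.27 CPM in normal regions. Pancreatic acinar markers were 3.42, 3.92 and 12.3 CPM in lesions and 4.08, 3.52 and 3.34 CPM in normal regions.

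Among bile duct markers, Krt7 and Krt19, the keratins that define the duct, and Epcam had too few counts to test and so could not pass. Spp1, a secreted matrix protein (log2 difference 2.80, SE 0.117, adjusted p = 9.7e-11, edgeR), and the transcription factor Sox9 (0.94, SE 0.173, adjusted p = 0.000298, edgeR) were higher. Krt7 had 7, 3 and 3 counts in lesions and 1, 0 and 5 in normal regions, and Krt19 had 9, 9 and 3 counts in lesions and 6, 3 and 2 in normal regions. Epcam had 2, 8 and 2 counts in lesions and 4, 2 and 7 in normal regions. Hepatocyte markers were abundant in every library, at a sum of 111000 to 134000 CPM in lesions and 70300 to 74700 CPM in normal regions. Ass1, an enzyme of the urea cycle on that list, had no more than 2 counts in any library, normal regions included. The reason was not tested, and a count near 0 here need not mean that a gene is silent. The hepatocyte sum does not stand for its list: of 11 tested, 3 were higher and 6 lower, with a median log2 difference of -0.23. Apoa1 was higher (log2 difference 1.53, SE 0.058, adjusted p = 1.28e-13, edgeR) and Cyp2e1 lower (-1.41, SE 0.052, adjusted p = 1.07e-13, edgeR). Markers of macrophages were lower in 9 of 9 tested, those of stellate cells higher in 4 and lower in 1 of 10, and those of endothelium higher in 2 of 9. Of the Schwann cell list 1 of 4 tested was lower, Erbb3, which made up most of the summed list. Its mean was 117.9 CPM in lesions, where the sum was 120 to 137 CPM, so the sum does not stand for the list. Over all tested genes 18.7% were higher and 18.4% lower. The endothelial share of 22.2% higher and the Schwann cell share of 25% lower are close to these. Lymphocyte markers had none of 2 tested that passed.

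None of the closest relatives of the 4 genes combined so few normal counts with so many lesion counts. The 4 were chosen for that, and only 0.0396% of all genes met both limits, so this says little about the families. Of 12 relatives, 9 had too few counts to test and never exceeded 9 counts in a library, and Rims1 and Dcc had no count at all. Of the 3 tested, 1 was higher and 2 lower, against 18.7% and 18.4% of all tested genes. Tff1 had 3, 6 and 2 counts in lesions and 6, 3 and 6 in normal regions. Tff2, which lies beside Tff3 on the chromosome, had 4, 2 and 4 counts in lesions and none in normal regions. A count of 0 in 1 library, taken alone, allows up to 3 reads in that library. Without the count filter its adjusted p was 0.0151 (edgeR), and DESeq2 gave none. This p was picked after the values were seen. The other relatives too sparse to test had adjusted p between 0.185 and 0.776 without the filter (edgeR), where they had any count. Shc1, the widely expressed SHC adaptor, had 492, 538 and 477 counts in lesions and 343, 349 and 356 in normal regions. It was higher by a log2 difference of 0.48 (SE 0.075, adjusted p = 5.22e-05, edgeR), far less than the 6.05 of Shc2. Per length Shc1 was still above Shc2 in lesions, at 19.1 FPKM on average against 5.21 FPKM.

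Shc3 and Shc4 had at most 2 counts in any lesion and at most 4 in any normal region. Rims3 had 35, 35 and 29 counts in lesions and 46, 51 and 42 in normal regions. Its log2 difference was -0.54 (SE 0.206, adjusted p = 0.0473, edgeR), and the call was lost on leaving out any 1 library, with an adjusted p up to 0.155. Neo1, which encodes neogenin, had 149, 171 and 152 counts in lesions and 179, 198 and 187 in normal regions, a log2 difference of -0.30 (SE 0.105, adjusted p = 0.028, edgeR). That call was lost without lesion 1 or any 1 of the normal libraries, with an adjusted p up to 0.111. Both calls were also lost with DESeq2, at adjusted p = 0.212 for Rims3 and 0.15 for Neo1. Rims4 had 0, 2 and 9 counts in lesions and 1, 2 and 1 in normal regions. Igdcc3, the neighbour and nearest relative of Igdcc4, had at most 1 count in any library.

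**Figure D4:**
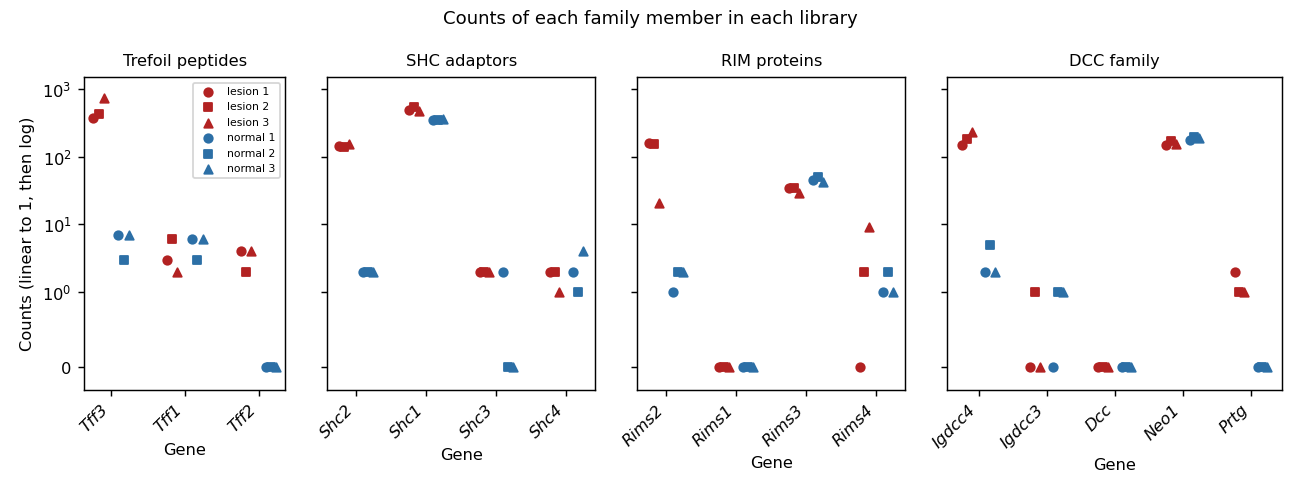
Counts per library of the 4 genes and their relatives, grouped by family, with lesions left of normal regions; the axis is linear up to 1 and logarithmic above. Within each family the gene with a wide gap between the groups is the one that was chosen for that gap. Shc1, Rims3 and Neo1 are the other genes with enough counts to test.

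Genes that act with each of the 4 are given as lists, with the members that passed in each direction over all tested genes. Of 34 tested genes of SHC adaptors and receptor signalling, 3 were higher, 9 lower and 22 did not pass, with a median log2 difference of -0.06 against 0.0031 over all genes. These are 8.82% and 26.5% of the list, against 18.7% and 18.4% of all tested genes. Library size alone gave 1 higher and 14 lower. Receptors were among the lower genes: Ntrk2, the neurotrophin receptor kinase, had 143, 151 and 106 counts in lesions and 353, 386 and 392 in normal regions, a log2 difference of -1.55 (SE 0.107, adjusted p = 7.51e-10, edgeR). The hepatocyte growth factor receptor Met (-0.53, adjusted p = 1.1e-05, edgeR) and the epidermal growth factor receptor Egfr (-0.36, adjusted p = 5.1e-05, edgeR) were lower as well. Higher with Shc1 were Flt1 and Crkl, but library size alone lost both calls, at adjusted p = 0.0822 and 0.133 (edgeR). Flt1 was also lost without normal region 2 (adjusted p = 0.0666, edgeR), and Crkl without normal region 3 (0.0548) and with DESeq2 (0.0608).

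Of 50 tested genes of RIM proteins and vesicle exocytosis, 6 were higher, 5 lower and 39 did not pass, with a median log2 difference of -0.09. These are 12% and 10% of the list, below the 18.7% and 18.4% of all tested genes. Sytl5, a synaptotagmin-like protein that binds Rab27, had 87, 85 and 99 counts in lesions and 12, 8 and 12 in normal regions, a log2 difference of 3.02 (SE 0.23, adjusted p = 3.11e-09, edgeR). Unc13b, the Munc13 protein that RIM proteins bind, had 289, 295 and 260 counts in lesions and 110, 125 and 113 in normal regions, a log2 difference of 1.23 (SE 0.103, adjusted p = 1.24e-08, edgeR). Both were about even over the 3 lesions, unlike Rims2. The Rab3 GTPase gene Rab3d (1.06, adjusted p = 2.34e-06, edgeR) and Rab3gap2, part of the complex that switches Rab3 off (0.45, adjusted p = 0.000405, edgeR), were also higher. Of the 71 genes of the list in the table, 8 had no count in any library, the synaptic genes Rab3c, Rph3a, Snap25, Syt4, Cplx1 and Unc13c among them. Other synaptic genes did have reads, picked here after their values were seen. Syt1, a calcium sensor of vesicle release, had 124, 122 and 86 counts in lesions and 124, 113 and 104 in normal regions and did not pass. Syt12, also a synaptotagmin, was higher (log2 difference 1.42, adjusted p = 0.00546, edgeR). Cacna1b, a presynaptic calcium channel gene, had 7, 19 and 11 counts in lesions and 0, 0 and 2 in normal regions, too few for the filter; without it the adjusted p was 3.44e-06 with edgeR, and DESeq2 gave 0.00504. The lower calls of this list numbered 12 with library size alone, 1 with DESeq2, 7 without lesion 3 and 2 without any other 1 library.

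Of 28 tested genes of the DCC family, its netrin ligands and the BMP pathway in which neogenin and repulsive guidance molecules act, 5 (17.9%) were higher, 12 (42.9%) lower and 11 did not pass, with a median log2 difference of -0.24. Over all tested genes 18.7% were higher and 18.4% lower. The netrin receptor gene Unc5b had 176, 177 and 106 counts in lesions and 69, 49 and 43 in normal regions, a log2 difference of 1.46 (SE 0.226, adjusted p = 0.000394, edgeR). Id1, a target of BMP signals (2.0, SE 0.286, adjusted p = 1.95e-05, edgeR), and Hfe2, the BMP co-receptor hemojuvelin (0.73, SE 0.0984, adjusted p = 8.05e-06, edgeR), were higher. Bmpr2, a BMP receptor, was lower (-0.37, SE 0.0751, adjusted p = 0.00059, edgeR). Other genes on the BMP side of the list, picked after their values were seen, did not rise with Id1. Hamp, the hepcidin gene, was lower (-1.05, SE 0.188, adjusted p = 0.0107, edgeR), and Smad6 and Smad7 did not pass. Whether BMP signals differed was not tested. DESeq2 called 7 of the list lower. Of 26 tested adhesion and guidance genes of the immunoglobulin superfamily, 6 (23.1%) were higher, 11 (42.3%) lower and 9 did not pass, with a median of -0.27. The lower calls numbered 3 with DESeq2 and between 4 and 10 when 1 library was left out. Alcam (1.57, adjusted p = 2.21e-11, edgeR), Igsf8 (0.99, adjusted p = 2.24e-06, edgeR) and Mcam (1.53, adjusted p = 2.96e-06, edgeR) were higher, and Ceacam1 was lower (-0.52, adjusted p = 8.28e-06, edgeR).

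Of 8 tested genes of trefoil peptides and mucosal secretion, 2 were higher, 2 lower and 4 did not pass, or 25% in each direction, near the 18.7% and 18.4% of all tested genes. In this list 10 of the 32 in the table had no count in any library. The median log2 difference was 0.03, and -0.11 with library size alone. Lcn2, an iron-binding secreted protein, had 859, 886 and 1288 counts in lesions and 366, 389 and 417 in normal regions, with lesion 3 highest as for Tff3 (log2 difference 1.33, SE 0.205, adjusted p = 0.0062, edgeR). Foxa3, a liver and gut transcription factor, was higher (0.50, adjusted p = 0.000101, edgeR). The receptor that carries antibodies into bile, Pigr, was lower (-0.75, adjusted p = 5.53e-09, edgeR). Muc6 was lower too (-0.44, adjusted p = 0.0313, edgeR), a call lost without lesion 1 or 2 or normal region 2 or 3, with an adjusted p up to 0.135.

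Genes known from fetal liver and liver tumours formed the one list of the 6 with most of its tested members higher. Of 22 tested, 14 (63.6%) were higher, 1 (4.55%) lower and 7 did not pass, with a median log2 difference of 0.95. The shares over all tested genes were 18.7% higher and 18.4% lower. Of the 32 genes of the list, Lin28a, Lin28b and Spink1 had no count in any library. The summed list was lower in lesion 3 too, at 3060, 2880 and 1900 CPM in lesions 1 to 3. The list was drawn up with results of these libraries known and is no independent evidence. Akr1c18, a steroid dehydrogenase, had 74, 71 and 55 counts in lesions and 4, 4 and 10 in normal regions, a log2 difference of 3.40 (SE 0.306, adjusted p = 3.42e-08, edgeR). Glis3 (2.01, adjusted p = 1.27e-05, edgeR) and Tcf24 (1.06, adjusted p = 0.000215, edgeR), both transcription factors, and the Golgi protein gene Golm1 (1.21, adjusted p = 6.72e-05, edgeR) were higher.

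Genes beside the 4 passed the test at about the rate of all genes. Of the 5 annotated genes on each side of the 4 genes, 40 in all, 28 were in the table and 13 had enough counts to test; 2 were higher and 2 lower, 15.4% in each direction against 18.7% and 18.4% of all tested genes. Gm15318, a non-coding RNA 23.1 kb from Tff3 that overlaps Tff1 on the opposite strand, had 87, 118 and 117 counts in lesions and 47, 51 and 59 in normal regions, a log2 difference of 0.99 (SE 0.167, adjusted p = 0.000105, edgeR). Mier2, 60.9 kb from Shc2, was higher by 0.44 (adjusted p = 0.0285, edgeR), a call lost in 5 of the 6 fits that left out 1 library, with an adjusted p up to 0.104. Near Rims2, Dpys, the liver enzyme dihydropyrimidinase, lay 84.1 kb away and had 796, 847 and 762 counts in lesions and 1171, 1247 and 1230 in normal regions, a log2 difference of -0.65 (SE 0.0614, adjusted p = 7.09e-08, edgeR). Gm16291, 113 kb from Rims2, was lower as well (-0.98, SE 0.184, adjusted p = 0.000321, edgeR). None of the 3 tested neighbours of Igdcc4 passed.

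C2cd4c, the gene 3.91 kb from Shc2, was picked after its values were seen. It had 16, 8 and 14 counts in lesions and 0, 2 and 1 in normal regions, too few for the filter. Without the filter its adjusted p was 9.54e-06 with edgeR, and DESeq2 gave 0.00423.

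The genes with the most similar profile over the 6 libraries were found by the root mean square distance between centred log2(CPM + 0.5) values, among 6761 other genes with at least 300 lesion counts. For Shc2 these were Egr1 at 0.198, Fgf21 at 0.265 and Igdcc4 at 0.278. For Igdcc4 they were Shc2 at 0.278, Egr1 at 0.368 and Cbr3 at 0.459, and for Tff3 they were Shc2 at 0.622, Igdcc4 at 0.644 and Cbr3 at 0.678. Rims2 had other neighbours: Phgdh at 0.589, Adamtsl5 at 0.614 and Psat1 at 0.664, all lower in lesion 3 than in lesions 1 and 2. The distance is made mostly of the gap between lesion and normal libraries, which chose the 4 genes, so that genes meeting the same count limits lie near each other is largely fixed by that choice. Its distance to the other 3 was 1.01 to Shc2, 1.17 to Igdcc4 and 1.51 to Tff3. Egr1 had 275, 282 and 230 CPM in lesions and 11.2, 11.7 and 9.73 CPM in normal regions. The added 0.5 shrinks the difference of genes near 0 in normal regions, so a small distance does not mean an equal fold.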

How the data were processed

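RNA from 3 lesion and 3 normal adjacent regions of mouse liver was depleted of ribosomal RNA and sequenced, per the labels' protocols. Per the submitters' processing notes DESeq2 1.24.0, STAR 2.5.2b, cutadapt 1.18 and CASAVA 1.8 were used on build mm10. The sources used here do not name the counting tool, its annotation or its use of strand. The authors deposited whole-number counts per gene and FPKM values. Count divided by FPKM gave a whole-number gene length, within 0.02 base, for 100% of 18337 genes with a count. The authors' deposited table also gives a baseMean signal, a log2 fold change, a test score and p-values, of which log2 fold changes are quoted.

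Levels are counts, FPKM and CPM on TMM-scaled libraries (trimmed mean of M values). The test was the two-sided quasi-likelihood test of edgeR 4.0.16 in R 4.3.3 on genes that passed its expression filter with defaults, with Benjamini-Hochberg adjustment over all 12506 tested genes and a threshold of 0.05. SE is the log2 difference over the square root of F. Counting intervals are exact at 95% and, like all counts without molecular identifiers, cover counting error only. DESeq2 1.42.0 was an alternative. No pairing by library number was seen: deviations from the group means correlated at 0.019, -0.026 and -0.018 for numbers 1 to 3. With 3 libraries per group, this cannot show whether regions shared a mouse.

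The members and the lists were chosen with earlier results of these data known. Genes named are the 4, their relatives, the 3 most similar profiles, up to 4 members of each pathway list and 2 of each marker list by lowest p among those that passed, neighbours that passed, and the genes inside and nearest outside the count limits; defining markers and relatives with few counts are named for their counts. Flt1 and Crkl complete a count of 3. Of 373 list symbols, 372 were found. A gene that met the count limits is not reported here.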

Additional observations from a re-analysis of the deposited data

How the results depend on the processing

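Of 315 values recomputed under alternatives, 253 stayed within 1.5 times the count or within the spread between libraries, 62 moved and none reversed. Scaling on library size alone gave 1474 genes higher and 3615 lower. In the lists it gave 1 higher and 14 lower for SHC signalling, 12 lower for exocytosis and 2 lower for fetal and tumour genes, with 1 neighbour higher and 7 lower, and Shc2 at a log2 difference of 5.92. DESeq2 called 1 exocytosis gene, 7 genes of the DCC and BMP list, 3 of the immunoglobulin list and 0 relatives lower. Without the count filter 2 relatives were higher and 1 lower, and 4 neighbours were higher.

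The size of the members' differences depends on what is added to near-zero normal values. A prior count of 2 gave 5.17 for Shc2 and 5.22 for Igdcc4. On log2(FPKM + 0.1) Shc2 was 4.93, Rims2 3.61 and Igdcc4 4.69, and on log2(FPKM + 1) Tff3 was 5.80, Shc2 2.53, Rims2 1.39 and Igdcc4 2.29. With at most 10 or 40 normal counts in place of 20, 5 or 19 genes met the thresholds.

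Leaving out 1 library at a time gave 1 to 2 lower mucosal genes, 2 to 7 higher SHC signalling genes (7 without lesion 3), 2 to 7 lower exocytosis genes, 6 to 12 lower DCC and BMP genes, 4 to 10 lower immunoglobulin genes and 1 to 2 lower fetal genes. It gave 0 to 1 lower relatives and 2 to 4 lower neighbours. The log2 difference ranged from 6.04 to 6.62 for Tff3, 5.99 to 6.10 for Shc2, 5.57 to 6.40 for Rims2 and 5.65 to 6.43 for Igdcc4. The coefficient of variation over lesions ranged from 6.75% to 47.9% for Tff3, 4.72% to 10.4% for Shc2, 3.47% to 108% for Rims2 and 13.7% to 33.2% for Igdcc4. With the replicate number as a block, 1 relative was lower in place of 2; it changed no other count by over 1.5 times. The causes of these moves were not tested. The 5 to 17 normal reads behind each member limit how well its fold is known.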
